A study of Mus musculus with 4 samples.

Results

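The glucocorticoid-responsive genes Fkbp5, Sgk1, Tsc22d3, Zbtb16, Pdk4, Cdkn1a, Mt1, Mt2, Plin4 and Hif3a were examined on gene expression arrays of mouse brain. They were found by their gene symbol, and each of the 10 had 1 transcript cluster among the 33793 of the array, that is, 1 set of probes designed against the transcripts of that locus. Whole brains came from adult female mice of strain 129SV, 2 of them wild type and 2 Adar2-/-, with 1 array per brain sample. Adar2, also named Adarb1, encodes an enzyme that deaminates adenosine to inosine in double-stranded RNA. Per the study's methods, wild-type and knockout mice were siblings and both were homozygous for a pre-edited Gria2 allele, written Gria2 R/R, without which the knockout is lethal soon after birth. The wild-type arrays are therefore controls with altered Gria2, and the comparison asked which transcripts differ in the brain when ADAR2 is missing.

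Glucocorticoids, corticosterone in the mouse, are released from the adrenal gland under stress and with the time of day. They bind the glucocorticoid receptor, encoded by Nr3c1, which leaves its HSP90-containing chaperone complex, enters the nucleus and activates genes whose control regions carry glucocorticoid response elements. In brain, such genes are induced in astrocytes, oligodendrocytes, endothelial cells and neurons, and several of them feed back on the hormone signal. Some of the genes also answer to other inputs, as metals raise Mt1 and Mt2, p53 raises Cdkn1a, and fasting raises Pdk4.

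Stretches of the promoters of Sgk1, Mt1 and Mt2 that match response elements for the receptor or for metals are shown as examples. Whether these matches work as response elements was not tested. RefSeq promoters (GRCm38.p6, from 250 bases before to 50 after a start) were given for 9 of the 10 genes, 17 promoters in all, and both strands were searched. Capitals mark the match and all windows are written 5′ to 3′ on the strand of the gene, which is the plus strand for these genes. The Sgk1 window holds the match at chr10:21993701-21993715, and for Mt1 (match at chr8:94179066-94179072) and Mt2 (match at chr8:94172568-94172574) the nearest match before the start is given, which for Mt2 is on the opposite strand and so appears reversed and complemented.
Sgk1 glucocorticoid response element: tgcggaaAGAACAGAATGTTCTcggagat
Mt1 metal response element: cccgctgTGCACACtggcgct
Mt2 metal response element: ggagggcGTGTGCAggctctg

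The full palindrome, AGAACA and TGTTCT with 3 bases of any kind between them, was present in 1 of the 6 Sgk1 promoters and in no other of these genes' promoters, and 3 of 32851 mouse promoters, or 0.00913%, contained it. The single arm AGAACA, which also lies inside the palindrome, occurred in promoters of Sgk1 and Tsc22d3 and in 19.0% of all promoters. The metal response element core, TGCACNC or TGCGCNC, occurred in promoters of Mt1, Mt2, Hif3a and Sgk1 and in 25.7% of all promoters. Mt1 had 3 such matches and Mt2 had 4. The core of the hypoxia response element, ACGTG, was found in promoters of Fkbp5, Mt1 and Sgk1 and in 19.6% of all promoters. Letters outside these windows were not searched, and a match is a description of sequence.

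Values are normalized log2 signals, so that a difference of 1 is a 2-fold change. The median log2 signal of an array lay between 6.03 and 6.09. Adarb1 had log2 signals of 10.50 and 10.45 in wild type and of 9.16 and 8.96 in the knockout, a fall by 1.415 (SE 0.118, limma p 2.57e-05, adjusted p 0.409). Marker genes of salivary gland, olfactory bulb and pituitary differed among the arrays. Of 12 clusters of salivary gland markers, 7 were highest on knockout array 1, where the summed linear signal of the 12 was 8315 against 451.2 to 480.4 on the other arrays. Most of that sum came from Bpifa2 and Dcpp1, at log2 signals of 12.61 and 10.20 there. Dcpp2 (4.34 and 4.32) and Prol1 (3.36 and 3.34) were nearly level on both knockout arrays. All 9 clusters of olfactory bulb markers were lowest on knockout array 2, summing to 2343 against 2970 to 3427. Pituitary markers summed to 417 and 515.4 in wild type and to 1513 and 2507 in the knockout. Brain neuron markers were present throughout, with summed signals between 30890 and 32630.

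None of the 10 glucocorticoid-responsive genes differed between the genotypes beyond the error. 0 of 10 passed an adjusted limma p of 0.05, as did 0.0% of all clusters, and 0 of 10 passed an unadjusted p of 0.05, a threshold that 5.95% of all clusters passed. The unadjusted p-values ran from 0.128 for Sgk1 to 0.867 for Plin4, and the adjusted ones from 0.849 to 0.987. Of the genes, 5 had a higher and 5 a lower mean signal in the knockout, with a median difference of -0.0075 against 0.005 over all clusters. The median of the 10 was -0.0725 without wild type replicate 1 and 0.04 without wild type replicate 2. In no gene were the genotypes separated, although 34.1% of all clusters had both knockout arrays above or below both wild-type arrays. For all 10 the difference between genotypes was smaller than the larger of the gaps between replicate arrays. The smallest two-sided p of an exact permutation test in this design of 2 and 2 arrays is 0.333. In whole-brain RNA fewer expressing cells cannot be told apart from less RNA per cell.

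**Figure D1:**
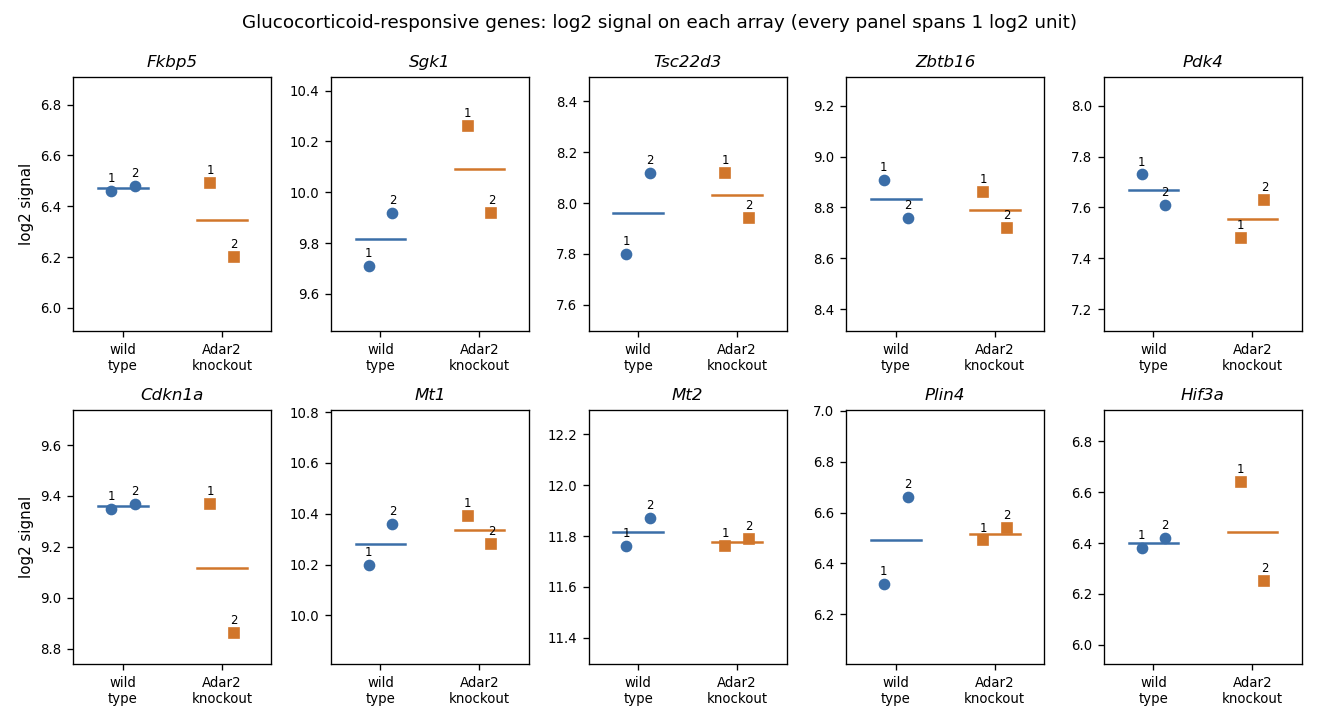
Log2 signal (vertical axis, each panel spanning 1 unit) of the 10 glucocorticoid-responsive genes on the wild-type arrays (blue circles) and Adar2 knockout arrays (orange squares), numbered by replicate, with bars at the means of 2 arrays. The genotypes overlap in every panel, and the widest gap is between the knockout arrays for Cdkn1a, at 9.37 and 8.86.

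The error of the estimates sets what size of change these arrays could have missed. For 8 of 10 genes the 95% confidence interval of the difference lay within a 1.5-fold change either way, and for all 10 within a 2-fold change. The exceptions at 1.5-fold were Sgk1, whose interval reached a 1.58-fold rise, and Cdkn1a, whose interval reached a 1.61-fold fall. All 10 genes gave signals of 6.20 or more on every array, above the range of 3.49 to 4.40 of 4 Y-linked clusters that serve as a floor in females. Fkbp5, Plin4 and Hif3a, at 6.20 to 6.66, were however near the array medians of 6.03 to 6.09. Among muscle and adipocyte markers Tnnt3 had a similar 6.09 to 6.48, while Adipoq was lower at 4.32 to 4.63. How far these genes stood above background is thus uncertain, and their intervals bound a change in signal only.

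Fkbp5 and Sgk1 are the genes most often used to read glucocorticoid action in brain. Fkbp5 (chromosome 17, 28399095 to 28517524, minus strand) encodes a co-chaperone of the receptor complex that lowers hormone binding, and so closes a feedback loop. Its log2 signals were 6.46 and 6.48 in wild type and 6.49 and 6.20 in the knockout. Knockout array 2 alone was low, while knockout array 1 had a signal like those of the wild-type arrays. The difference was -0.125 (SE 0.132, 95% interval -0.451 to 0.201, limma p 0.382, adjusted p 0.917). Without knockout replicate 2 it was 0.02.

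Sgk1 (chromosome 10, 21882184 to 21999903, plus strand) encodes a serine/threonine kinase that acts on ion channels and transporters and is induced in oligodendrocytes and other brain cells. It had log2 signals of 9.71 and 9.92 in wild type and of 10.26 and 9.92 in the knockout. Knockout array 1 was the highest, and knockout array 2 and wild-type array 2 had the same signal. The difference of 0.275 was the largest among the 10 genes (SE 0.155, 95% interval -0.107 to 0.657, limma p 0.128, adjusted p 0.849), and 11.1% of all clusters had a difference at least as large in either direction. It was 0.105 without knockout replicate 1 and 0.445 without knockout replicate 2. Knockout array 1 is the array with the salivary signal given above, whose part in the Sgk1 value was not tested.

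Tsc22d3 and Zbtb16 encode regulators of transcription. Tsc22d3 (chromosome X, 140539528 to 140600659, minus strand), also known as Gilz, encodes a leucine zipper protein that carries part of the anti-inflammatory action of glucocorticoids. Its log2 signals were 7.80 and 8.12 in wild type and 8.12 and 7.94 in the knockout. The knockout signals lay between or on those of wild type, and the difference was 0.07 (SE 0.148, 95% interval -0.294 to 0.434, limma p 0.653, adjusted p 0.966). Zbtb16 (chromosome 9, 48654297 to 48835945, minus strand), also known as Plzf, encodes a zinc finger repressor. It had 8.91 and 8.76 in wild type and 8.86 and 8.72 in the knockout, so that the arrays alternated in rank. The difference was -0.045 (SE 0.117, 95% interval -0.335 to 0.245, limma p 0.715, adjusted p 0.976).

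Pdk4 and Plin4 belong to fuel and lipid metabolism. Pdk4 (chromosome 6, 5483351 to 5496309, minus strand) encodes a kinase that turns down pyruvate dehydrogenase and thereby glucose oxidation. Log2 signals were 7.73 and 7.61 in wild type and 7.48 and 7.63 in the knockout. Knockout array 1 was the lowest and knockout array 2 lay between the wild-type arrays, with a difference of -0.115 (SE 0.116, 95% interval -0.400 to 0.170, limma p 0.359, adjusted p 0.910). Plin4 (chromosome 17, 56100591 to 56109802, minus strand) encodes a coat protein of lipid droplets. Its wild-type arrays, at 6.32 and 6.66, were the lowest and the highest, and enclosed the knockout arrays at 6.49 and 6.54. The difference was 0.025 (SE 0.143, 95% interval -0.327 to 0.377, limma p 0.867, adjusted p 0.987). Plin4 and Pdk4 are also strong in fat and muscle. None of 11 clusters of adipocyte and muscle markers passed an unadjusted p of 0.05, against 5.95% of all clusters, with summed linear signals of 633.8 and 664.2 in wild type and 680.1 and 636.6 in the knockout, and Adipoq was between 4.32 and 4.63 on all 4 arrays.

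Cdkn1a (chromosome 17, 29090979 to 29100722, plus strand) encodes p21, an inhibitor of cyclin-dependent kinases. Its log2 signals were 9.35 and 9.37 in wild type and 9.37 and 8.86 in the knockout. Knockout array 1 was level with the wild-type arrays and knockout array 2 stood below all others. The gap of 0.51 between the knockout arrays was the largest replicate gap of the 10 genes, and 4.78% of all clusters had one at least as large. The difference was -0.245 (SE 0.181, 95% interval -0.691 to 0.201, limma p 0.226, adjusted p 0.873). It rested on that array, since it was -0.50 without knockout replicate 1 (limma p 0.0169, adjusted p 0.762) and 0.01 without knockout replicate 2. Knockout array 2 is the one with low olfactory bulb markers, whose part in the value was not tested. Of 10 other p53 targets, 0 passed an unadjusted p of 0.05, which 5.95% of all clusters did, and the largest difference was 0.245 for Gadd45a, a stress gene of cell cycle arrest and DNA repair (limma p 0.0855, adjusted p 0.835).

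Mt1 and Mt2 encode metallothioneins, small cysteine-rich proteins that bind zinc and copper, and lie next to each other on the plus strand of chromosome 8, at 94179089 to 94180327 and 94172618 to 94173567. Mt1 had log2 signals of 10.20 and 10.36 in wild type and of 10.39 and 10.28 in the knockout. Mt2 had 11.76 and 11.87 in wild type and 11.76 and 11.79 in the knockout. In both genes wild-type array 2 was above wild-type array 1, and the genotypes overlapped. The differences were 0.055 for Mt1 (SE 0.116, 95% interval -0.231 to 0.341, limma p 0.652, adjusted p 0.966) and -0.04 for Mt2 (SE 0.106, 95% interval -0.302 to 0.222, limma p 0.720, adjusted p 0.976). Mt2 had the narrowest interval of the 10 genes. Mt3, a metallothionein of neurons and astrocytes encoded at the same locus, had 10.82 and 11.11 in wild type and 11.13 and 11.11 in the knockout, a difference of 0.155 (limma p 0.287, adjusted p 0.895). It was the largest among 6 clusters of other metal-responsive genes, of which 0 passed an unadjusted p of 0.05 (5.95% of all clusters).

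Hif3a (chromosome 7, 17030993 to 17062427, minus strand) encodes a relative of the hypoxia-inducible factors with splice forms that restrain them. Its log2 signals were 6.38 and 6.42 in wild type and 6.64 and 6.25 in the knockout. The knockout arrays were the highest and the lowest, and the wild-type arrays lay close together between them. The difference was 0.045 (SE 0.153, 95% interval -0.333 to 0.423, limma p 0.779, adjusted p 0.982), and 9.91% of all clusters had a gap between the knockout arrays at least as large as its 0.39. Without knockout replicate 1 the difference was -0.15.

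**Figure D2:**
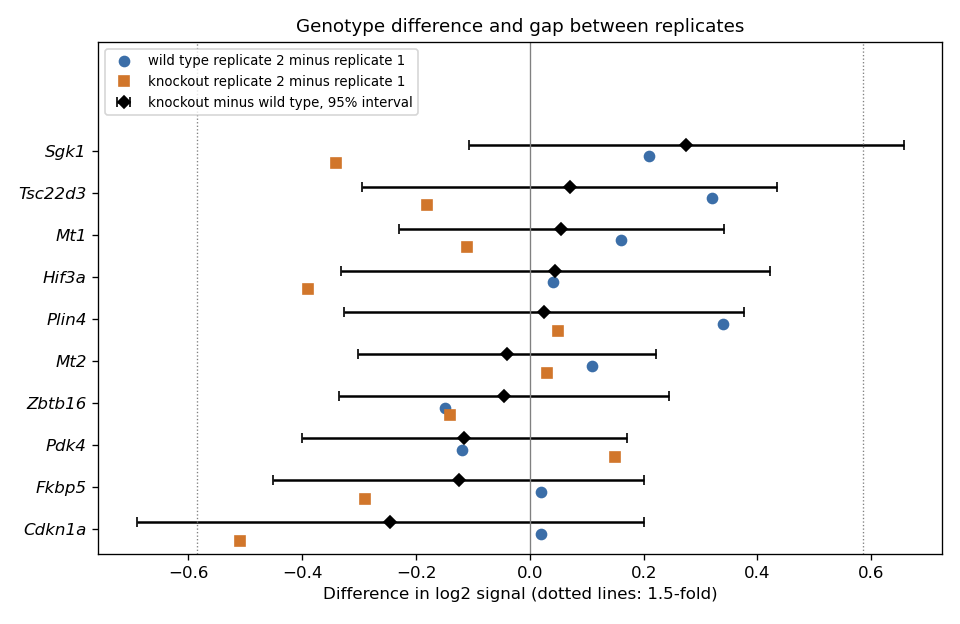
Difference in log2 signal (horizontal axis) between Adar2 knockout and wild type for the 10 genes, with the 95% confidence interval (black diamonds and bars), beside the gap between replicate 2 and replicate 1 of each genotype (blue circles for wild type, orange squares for knockout). Every interval includes 0, and those of Sgk1 and Cdkn1a cross the dotted lines at 1.5-fold.

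The order of the arrays differed among the genes. Between the wild-type arrays, replicate 2 was above replicate 1 for 8 of 10 genes, where 49.3% of all clusters showed this direction. Between the knockout arrays, replicate 2 was below replicate 1 for 7 of 10 genes, where 51.1% of all clusters did. The median absolute gap was 0.135 in wild type and 0.165 in the knockout, against 0.13 over all clusters in each genotype. Wild-type array 1 was alone lowest for Sgk1, Tsc22d3, Mt1 and Plin4, and knockout array 2 for Fkbp5, Zbtb16, Cdkn1a and Hif3a. Knockout array 1, the one with the salivary signal, was alone highest for 4 genes, Fkbp5, Sgk1, Mt1 and Hif3a, and wild-type array 1 for Pdk4 and Zbtb16.

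**Figure D3:**
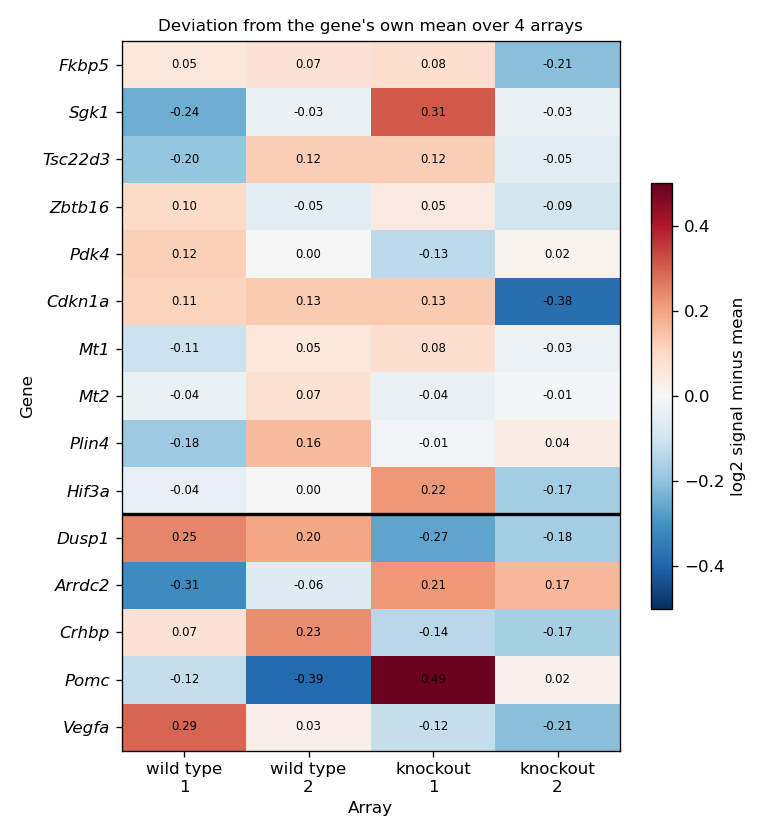
Log2 signal minus the gene's own mean over 4 arrays (colour and printed value), with arrays in columns and genes in rows; the 10 glucocorticoid-responsive genes are above the line and the listed genes with an unadjusted limma p below 0.05 are under it. Above the line the widest deviations are those of Cdkn1a on knockout array 2 and of Sgk1 on knockout array 1, and none of the 10 genes has both knockout arrays above or below both wild-type arrays.

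The genes that receive the hormone signal were compared next. Nr3c1, the glucocorticoid receptor, had log2 signals of 9.24 and 9.05 in wild type and of 9.11 and 9.19 in the knockout, a difference of 0.005 (SE 0.118, limma p 0.968, adjusted p 0.993). The cluster on the strand of Nr3c2, the mineralocorticoid receptor that binds corticosterone at lower hormone levels, had 8.52 and 8.32 in wild type and 8.33 and 8.53 in the knockout, a difference of 0.01 (SE 0.131, limma p 0.942, adjusted p 0.993). Both receptors thus had overlapping genotypes. Among all 18 genes of receptors, chaperones, coregulators and steroid-converting enzymes, with 25 clusters, 0 passed an unadjusted p of 0.05 in either direction. Of all clusters, 3.64% were called higher and 2.31% lower. At least 4 of the 25 clusters lay on the strand opposite the gene. Clusters of Ptges3 and Hspa8 also lay outside the gene, so some clusters may not measure the gene they are named for. The median difference of the 25 clusters was -0.035. It was 0.0 after quantile normalization, -0.0005 after cyclic loess and -0.075 after median centring. The largest difference was -0.24 for Stip1, the co-chaperone that links HSP70 to HSP90, with 10.18 and 10.04 in wild type and 9.89 and 9.85 in the knockout (limma p 0.0725, adjusted p 0.835).

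Of 24 other genes known to be induced by glucocorticoids, with 27 clusters, 1 was called higher and 1 lower at an unadjusted p, and 0 after adjustment, with a median difference of 0.065. Over all clusters 3.64% were called higher and 2.31% lower, so 1 of 27 in each direction was near the background. The higher one was Arrdc2, an arrestin-domain gene, at 7.48 and 7.73 in wild type and 8.01 and 7.96 in the knockout. Its difference was 0.38 (SE 0.126, limma p 0.0243, adjusted p 0.834). The lower one was Dusp1, a phosphatase of MAP kinases that is also an immediate early gene of neuronal activity, at 10.46 and 10.41 in wild type and 9.95 and 10.04 in the knockout. Its difference was -0.44 (SE 0.105, limma p 0.00627, adjusted p 0.834). For both genes all knockout signals lay on 1 side of the wild-type signals, as in 34.1% of all clusters, and the directions were opposite. Arrdc2 no longer passed without knockout replicate 1, knockout replicate 2 or wild type replicate 1 (limma p 0.121, 0.0922 and 0.0937, with differences of 0.355, 0.405 and 0.255), while Dusp1 passed with each array left out.

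Per1, a clock gene with glucocorticoid response elements, had 10.20 and 10.32 in wild type and 10.49 and 10.40 in the knockout, a difference of 0.185 (limma p 0.145, adjusted p 0.854). Klf9, a transcription factor induced by glucocorticoids and thyroid hormone, had 9.89 and 9.98 in wild type and 10.01 and 9.99 in the knockout, a difference of 0.065 (limma p 0.557, adjusted p 0.953). Both had the knockout arrays above the wild-type arrays, a separation in one direction or the other that 34.1% of all clusters showed, and neither passed an unadjusted p of 0.05. Among 14 other clock genes with 15 clusters, 0 passed an unadjusted p of 0.05, against 5.95% of all clusters. Their median difference was -0.05, and the largest was -0.26 for Cry2 (limma p 0.0571, adjusted p 0.834), a repressor within the clock.

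The array profile of Sgk1 was set against the 117 other clusters of the pathway lists, each centred on its own mean. Closest by root mean square distance were Bcl2l1 at 0.103, Per1 at 0.104 and a Slc2a1 cluster on the opposite strand at 0.105. Bcl2l1, which encodes an inhibitor of cell death, had log2 signals of 7.87 and 7.88 in wild type and 8.16 and 8.01 in the knockout. As in Sgk1, knockout array 1 was the highest and wild-type array 1 the lowest. The likeness covers 4 arrays, so many clusters lie at similar distances.

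Peptides and receptors of the hypothalamus-pituitary-adrenal axis, which drives glucocorticoid release, showed 1 of 10 genes called higher and 1 lower at an unadjusted p, against 3.64% and 2.31% of all clusters, and 0 after adjustment. Crh, the hypothalamic releasing hormone, had 6.37 and 6.55 in wild type and 6.63 and 6.38 in the knockout, a difference of 0.045 (limma p 0.751, adjusted p 0.979). Crhbp, which encodes a secreted protein that binds this hormone, had 8.30 and 8.46 in wild type and 8.09 and 8.06 in the knockout. Its difference was -0.305 (SE 0.112, limma p 0.0352, adjusted p 0.834), and it did not pass without knockout replicate 1, knockout replicate 2 or wild type replicate 2 (limma p 0.0925, 0.113 and 0.115, with differences of -0.32, -0.29 and -0.225). Pomc, the precursor of adrenocorticotropic hormone, had 5.36 and 5.09 in wild type and 5.97 and 5.50 in the knockout. Its difference was 0.51 (SE 0.188, limma p 0.0366, adjusted p 0.834), and it did not pass without knockout replicate 1, wild type replicate 1 or wild type replicate 2 (limma p 0.209, 0.101 and 0.260, with differences of 0.275, 0.645 and 0.375), and was 0.745 without knockout replicate 2. Crhbp did not pass after cyclic loess (-0.268, limma p 0.0558) or quantile normalization (-0.27, limma p 0.0553), or with the replicate number as a block (-0.305, limma p 0.0551). Pomc did not pass after cyclic loess (0.462, limma p 0.0552) or quantile normalization (0.456, limma p 0.0569). Pomc is made in the pituitary as well as in the hypothalamus. All 11 clusters of pituitary markers, Pomc among them, had a higher mean in the knockout, with 3 of 11 called higher against 3.64% of all clusters, and Prl was at 6.55 and 4.99 in wild type and 10.11 and 9.66 in the knockout. The part of pituitary tissue in the Pomc value was not tested.

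**Figure D4:**
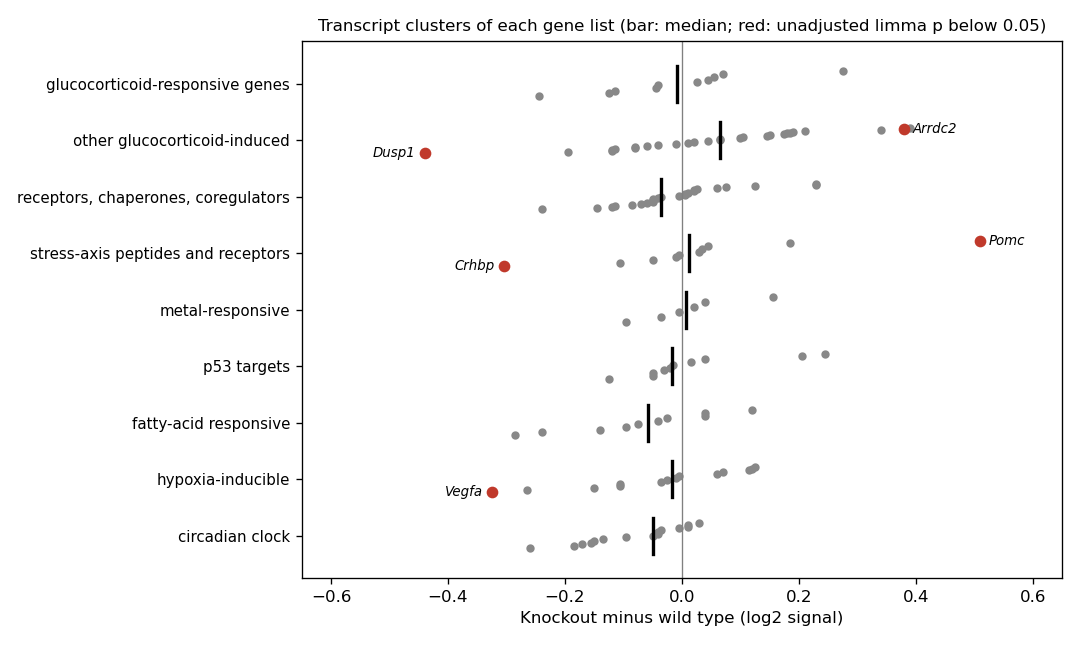
Knockout minus wild type difference in log2 signal (horizontal axis) of every transcript cluster in the 10 glucocorticoid-responsive genes and in 8 lists of related genes, with the median as a black bar and clusters with an unadjusted limma p below 0.05 in red with their gene names. The glucocorticoid-responsive genes lie between -0.245 and 0.275, and the 5 named clusters all have an adjusted p of 0.834.

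Lists for other inputs to the genes are given beside the 3.64% of all clusters called higher and 2.31% called lower at an unadjusted p. Among 10 fatty-acid responsive genes 0 passed an unadjusted p of 0.05, with a median difference of -0.0575 and the largest, -0.285, for Acot2, a mitochondrial thioesterase (limma p 0.0617, adjusted p 0.835). That median was -0.1075 without knockout replicate 1 and -0.0275 without wild type replicate 2. Among 14 clusters of 11 hypoxia-inducible genes 1 was called lower, namely Vegfa, the endothelial growth factor, at 8.90 and 8.64 in wild type and 8.49 and 8.40 in the knockout. Its difference was -0.325 (SE 0.129, limma p 0.0470, adjusted p 0.834), and it passed only without wild type replicate 2 among the fits with an array left out (-0.455, limma p 0.0294). The difference was -0.195 without wild type replicate 1, -0.37 without knockout replicate 1 and -0.28 without knockout replicate 2. It did not pass after cyclic loess (-0.283, limma p 0.0660) or quantile normalization (-0.292, limma p 0.0623). Markers of the brain cells in which the genes are induced were compared as well. Median differences were -0.0075 for endothelial, -0.0975 for astrocyte, -0.0225 for oligodendrocyte and -0.025 for neuron markers. Of 10 clusters each, 1 endothelial cluster was called higher, 1 astrocyte and 1 oligodendrocyte cluster lower, and 0 neuron clusters in either direction. Over all clusters 5.95% were called at this unadjusted p. The neuron median was 0.0251 after cyclic loess, 0.0066 after quantile normalization and -0.065 after median centring. Choroid plexus markers had 0 of 10 called and a median of 0.02, which was -0.13 without wild type replicate 1 and 0.185 without wild type replicate 2. Blood markers had 2 of 8 clusters called lower and a median of -0.265, which was -0.0375 without knockout replicate 1 and -0.555 without knockout replicate 2. The astrocyte median was -0.0575 without knockout replicate 1, -0.0505 after cyclic loess, -0.06 after quantile normalization and -0.1375 after median centring. The endothelial median ranged from -0.1075 without wild type replicate 2 to 0.1225 without wild type replicate 1, and the oligodendrocyte median from -0.0825 without wild type replicate 1 to 0.0625 without wild type replicate 2.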

How the data were processed

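Total RNA of 2 wild-type and 2 Adar2 knockout whole brains was labelled with the Ambion WT Expression Kit and hybridised by a core facility to Affymetrix whole-transcript gene arrays. The authors deposited normalized log2 signals per transcript cluster, given to 2 decimals. The submitters' processing notes name Affymetrix Expression Console and RMA, which usually corrects background, quantile-normalizes and summarises probes. Settings, detection calls and the genome build are not given in the sources used here. The coordinates printed are those of the file, and all 10 clusters overlapped the RefSeq (GRCm38.p6) gene. The table also holds the authors' means, ratios, fold changes and p-values, which were not used.

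Groups and replicate numbers came from the array labels. All 33793 clusters were fitted with the linear model of limma 3.58.1 under R 4.3.3, using lmFit, then eBayes, with genotype alone as a term, no filter and two-sided p-values under Benjamini-Hochberg adjustment over all clusters. The calculation was tested on simulated data. Tables and plots were made with Python 3.11.15, pandas 2.3.3 and matplotlib 3.10.9. The genes and lists were chosen with earlier results of these data known. Genes named from the pathway lists were those past an unadjusted p of 0.05, Nr3c1, Nr3c2, Per1, Klf9, Crh and Mt3, and the largest difference of a list; Bcl2l1 and the Slc2a1 cluster are 2 of the closest matches to Sgk1, and Stip1 and marker genes named beside results were added after their values were seen. P-values, SEs and intervals weigh each difference against the spread between arrays of a genotype. In eBayes that spread is drawn toward a value shared by all clusters (prior SD 0.125 log2, prior degrees of freedom 3.79). The number of arrays limits the precision. Other settings tried were 3 further scalings (median centring, quantile, cyclic loess), clusters above the median signal alone, a block for replicate number, trended or robust eBayes, and each array left out.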

Additional observations from a re-analysis of the deposited data

How the results depend on the processing

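In 11 alternative settings, 0 of the 10 genes passed an adjusted p of 0.05, and 0 passed an unadjusted one except Cdkn1a without Adar2 knockout replicate 1, so the unadjusted count ranged from 0 to 1 with single arrays left out. Sgk1 stayed higher and Pdk4 lower in the knockout in all 11. Mt2 turned to 0.0098 with cyclic loess normalization and Plin4 to -0.015 with median centring. With single arrays left out the differences ranged from 0.105 to 0.445 for Sgk1, -0.19 (without knockout replicate 2) to -0.04 (without knockout replicate 1) for Pdk4, -0.27 to 0.02 for Fkbp5, -0.09 to 0.23 for Tsc22d3, -0.12 to 0.03 for Zbtb16, -0.5 to 0.01 for Cdkn1a, -0.025 to 0.135 for Mt1, -0.095 to 0.015 for Mt2, -0.145 to 0.195 for Plin4 and -0.15 to 0.24 for Hif3a; a genotype left with 1 array took its spread from the pooled fit. Receptors and chaperones had 1 call of 25, Stip1, with an intensity trend, where 5.83% of all clusters were called. The other glucocorticoid-induced genes had 4 calls of 27 with the replicate block, where 5.01% of all clusters were called. They had 3 of 27 after cyclic loess or quantile normalization (5.44% of all clusters each) and with an intensity trend (5.83%). Above the median signal they had 3 of 24 (5.85%). In each of these settings 1 call was a Glul cluster on the opposite strand. The Glul cluster on the gene's strand differed by -0.04 (limma p 0.717) in the main fit. The median of the list was 0.025 after median centring. Genes of the stress axis had 1 call of 7 above the median signal, where 5.85% of all clusters were called. With the replicate block they had 1 of 10 (5.01% of all clusters). They had 0 of 10 with cyclic loess and 0 of 10 with quantile normalization (5.44% of all clusters each). With single arrays left out the median difference ranged from -0.0725 to 0.04 for the 10 genes, -0.035 to 0.015 for receptors and chaperones, 0.005 to 0.135 for the other induced genes and -0.0725 to 0.0625 for the stress axis. The median of the 10 genes was -0.0475 after median centring, which moved the median of all clusters to -0.035, and 0.0101 after cyclic loess and 0.00156 after quantile normalization. With single arrays left out, the median for p53 targets ranged from -0.0225 to 0.0575, for metal-responsive genes from -0.045 to 0.0375, for hypoxia-inducible genes from -0.0625 to 0.0025 and for clock genes from -0.08 to -0.035. What causes such shifts was not tested. The balance of unadjusted calls over all clusters, 1230 higher and 779 lower, was 801 and 1229 after median centring, 896 and 944 after quantile normalization and 924 and 915 after cyclic loess. The main fit had no block for replicate number because the methods name no pairing of arrays. Deviations of same-numbered arrays had a Pearson's r of 0.0516 over all clusters, which does not settle whether arrays were paired.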
